A study of Homo sapiens with 4 samples.

Results

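The small-subunit cytosolic ribosomal proteins were represented by 34 genes among the 19629 protein-coding genes of the total RNA count data. They were chosen by symbol, as every protein-coding gene in the GENCODE annotation named RPS with a number (RPS2, RPS4X, RPS27L and the like) or RPSA, with the RPS6K kinases left out. The rule reads symbols and uses no measured value, but RPS29 was set apart because its high count was already known. RNA had been taken from extracellular vesicles (EVs) released by PC3 cells, an established human cell line from a bone metastasis of prostate cancer, grown in culture with no treatment named in the labels. Vesicles of the size of exosomes were collected on columns, their total RNA was made into stranded libraries, and 2 replicates of this 1 condition were sequenced, which the methods describe as biological. The titles of both libraries carry the same name, EX1, and differ in replicate number, while their deposited counts are named EX1 and EX2. The labels thus do not settle whether the SD of n = 2 covers separate vesicle preparations. Only the methods call the replicates biological. There is no second condition or parent-cell library here, so the values describe RNA of the vesicle preparations and no test between conditions applies. The study asked which messenger RNAs these vesicles carry, since prostate cancer cells may pass RNA to bone cells.

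The small (40S) subunit of the cytosolic ribosome binds messenger RNA, scans it for the start codon and holds the decoding centre, where codons pair with tRNA. Its proteins sit either on the head, a mobile lobe, or on the body and platform below it, around a single 18S rRNA. The genes are among the most highly transcribed of growing cells, their messengers commonly begin with a run of pyrimidines that ties translation to growth signalling, and many have left processed pseudogenes (intronless copies) across the genome. Inherited loss of 1 copy of several of them, RPS19 first of all, causes Diamond-Blackfan anaemia.

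Of 19563744 reads in replicate 1 and 22042233 in replicate 2, only 489170 (2.50%) and 475942 (2.16%) were counted on a gene. Reads that aligned to more than 1 place, which the counting set aside, made up 45.5% and 48.1%. A further 36.3% and 35.4% aligned outside the counted gene features, and 14.2% and 12.8% did not align. The source of the reads outside genes was not tested, nor was their bearing on genes with few reads. Levels are given as reads and as CPM (counts scaled to 1000000 reads counted on genes), so that 1 read is worth 2.04 CPM in replicate 1 and 2.10 CPM in replicate 2. For a gene with no read the limit was taken as 3 reads, or 6.13 and 6.30 CPM. Intervals on shares are 95% Wilson intervals, and they and these limits cover counting error only. Whether a gene has more reads because more vesicles carry it or because each carries more cannot be told apart in such bulk RNA. PC3 markers were present, with the epithelial keratin KRT8 at 966 and 1088 reads, KRT18 at 94 and 87, EPCAM at 2 and 26, and the mesenchymal VIM at 130 and 87. The prostate luminal gene KLK3, 5 blood or serum markers and 3 osteoblast markers had no read in either library. Of 5 genes for EV proteins, CD63, CD81 and PDCD6IP had reads in both libraries, TSG101 had 26 and 0 reads and CD9 had none.

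A gene counts as identified here if each of the 2 replicates had a read on it. Of the 34 small-subunit genes, 22 (64.7%) were identified, against 21.9% of all protein-coding genes. With at least 10 reads in both libraries 21 (61.8%) remained, against 11.6% of protein-coding genes. A further 6 had reads in 1 library only, which was so for 20.3% of protein-coding genes, and 6 had none. Leaving RPS29 out, 21 of 33 genes were identified and 20 reached 10 reads in both libraries. Each identified gene but RPS27 had at least 10 reads in each library.

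**Figure D1:**
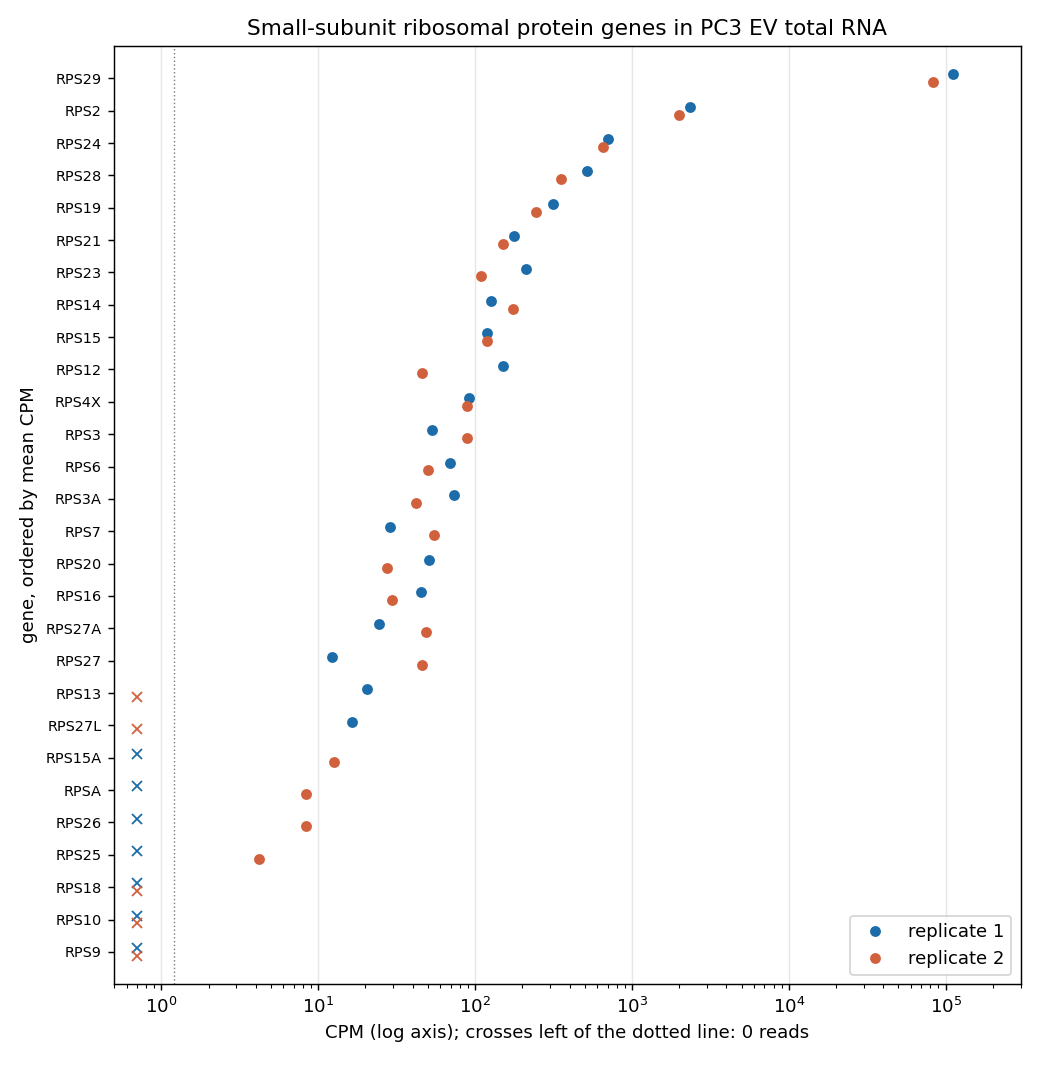
Level of each small-subunit ribosomal protein gene in CPM (log axis, not corrected for gene length) in replicate 1 (blue) and replicate 2 (red), with the genes described in the text ordered by mean CPM and those with 0 reads in a library drawn as crosses left of the dotted line. RPS29 stands far to the right at 110827 and 82659 CPM, and the other identified genes lie between 2172 CPM (RPS2) and 29.2 CPM (RPS27) on average.

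RPS29, a small zinc-binding protein of the head next to the messenger RNA path, held nearly all reads of the family. It had 54213 reads in replicate 1 and 39341 in replicate 2, which is 11.1% (interval 11.0 to 11.2%) and 8.27% (8.19 to 8.34%) of the reads counted on genes. Both libraries thus put it far above every other member, and the distance between them was larger than counting error. It made up 94.9% and 94.4% of the reads of the 34 genes, and no protein-coding gene had a higher mean CPM (96743 ± 19917 CPM, SD, n = 2). The next member by reads was RPS2, with 1151 and 948.

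The RPS29 gene (ENSG00000213741) lies on the minus strand of chromosome 14 at 49570984 to 49599164 in GRCh38. GENCODE release 44 gives it 8 transcripts and 4 separate stretches of exon, 9840 bases together, of which a single stretch at 49570984 to 49577853 supplies 6870. The canonical transcript is only 295 bases long. Inside the gene, between the exon stretches at 49585298 to 49586478 and 49597475 to 49599164, lies RN7SL1 on the plus strand. It is a gene for 7SL RNA, the RNA of the signal recognition particle, which directs ribosomes making secreted proteins to the endoplasmic reticulum. RN7SL1 starts 101 bases from the nearest RPS29 exon and overlaps none in release 44. It had 0 reads in both libraries, whereas its near-copy RN7SL2 on the same chromosome had 83154 and 69876 and RN7SL3 had 23251 and 36549. RN7SL1 and RN7SL2 share 295 of 300 aligned positions (98.3%), and RN7SL1 and RN7SL3 share 292 of 299 (97.7%). The RPS29 sequence printed here in lower case, 5′ to 3′, is a coding exon present in 5 of its 8 transcripts, and shows what a read of the ribosomal protein messenger itself would hold.
RPS29 coding exon (chr14:49585950-49586049, minus strand): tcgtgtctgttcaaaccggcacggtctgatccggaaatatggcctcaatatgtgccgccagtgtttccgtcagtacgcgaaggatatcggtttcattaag
The annotation release behind the deposited counts is not given in the sources used here, so it could not be checked whether the RPS29 model that was counted reached the 7SL RNA gene. The part of 7SL RNA in the RPS29 count was not tested. LRR1, on the other strand, overlaps 404 bases of RPS29 exon and had 41 and 0 reads. The pseudogene RPL32P29 lies wholly inside RPS29 exon on the same strand, with 403 bases of overlap, and had no read. Reads that fit both genes could be set aside as ambiguous, so this 0 says little about the pseudogene. Shares, medians and counts over the family are given with and without RPS29 where it changes them.

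**Figure D2:**
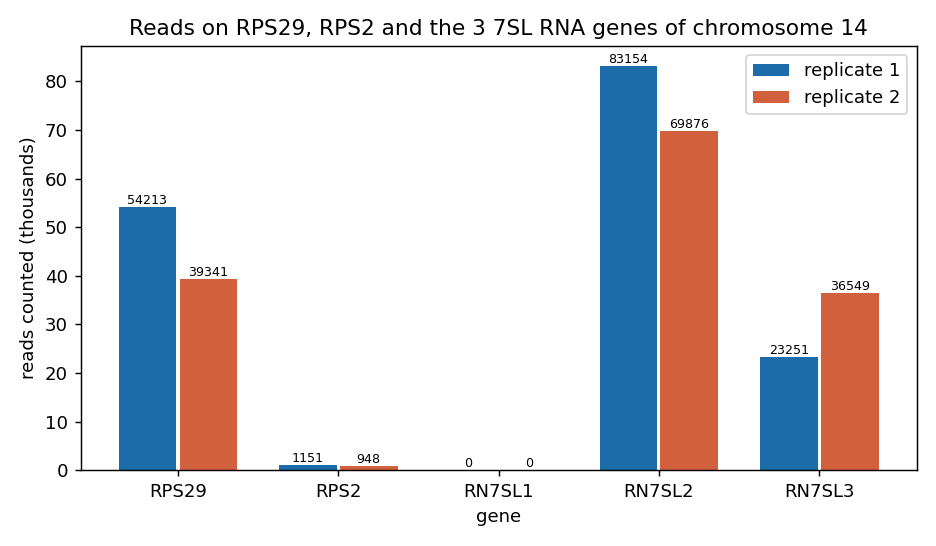
Reads counted (axis in units of 1000 reads, linear) on RPS29, on RPS2 and on the 3 genes for 7SL RNA of chromosome 14, in replicate 1 (blue) and replicate 2 (red). RPS29 stands at 54213 and 39341 reads, on the scale of RN7SL2 and RN7SL3, while RPS2 has 1151 and 948 and RN7SL1, inside the RPS29 gene, has 0 and 0.

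The 34 genes together had 57102 reads in replicate 1 and 41687 in replicate 2, or 10.2% ± 2.06 (SD, n = 2) of the reads on genes. Without RPS29 they had 2889 and 2346 reads, or 0.542% ± 0.0691 (SD, n = 2). The 53 large-subunit ribosomal protein genes (RPL) had 4769 and 3968 reads, or 0.904% ± 0.0998 (SD, n = 2). The 29 mitochondrial small-subunit genes (MRPS), whose proteins build the ribosome inside mitochondria, had 133 and 177. Thus without RPS29 the small-subunit genes carried fewer reads than the more numerous large-subunit genes, and both carried many more than the mitochondrial set. Reads in both libraries were found for 45 of 53 large-subunit genes (84.9%) and 9 of 29 mitochondrial ones (31.0%). The share over all protein-coding genes was 21.9%.

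Among the 14 head proteins, 10 genes (71.4%) were identified, against 21.9% of all protein-coding genes. RPS29 apart, the other 13 had 719 and 507 reads. RPS28 was highest, with 254 and 167 reads (435 ± 119 CPM, SD, n = 2). It is a small protein near the messenger exit, and its gene is on chromosome 19 at 8321158 to 8323340. RPS19, needed for maturation of 18S rRNA and the gene most often mutated in Diamond-Blackfan anaemia, had 153 and 116 reads (278 ± 48.8 CPM). For both genes replicate 1 was the higher library, and for RPS28 the intervals of the libraries did not overlap. RPS15, close to the decoding centre, had 58 and 57 reads (119 ± 0.845 CPM), the most even pair of all members. RPS12, on the tip of the head, had 74 and 22 reads (98.8 ± 74.3 CPM). It was the least even of the members with at least 10 reads in both libraries, with a log2 ratio of replicate 2 to replicate 1 of -1.71. RPS3, which lines the messenger entry and also has a DNA repair role, had 26 and 42 reads. RPS20 had 25 and 13 reads and RPS16, whose tail reaches the decoding site, had 22 and 14. RPS27A, made as a fusion with ubiquitin that is cut after translation, had 12 and 23. Of the rest, RPS25, used by viral internal ribosome entry sites, had 0 and 2 reads, and RPS10 and RPS18 had none.

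Among the 17 body and platform proteins, 12 genes (70.6%) were identified, against 21.9% of all protein-coding genes. All 17 together had 2162 and 1839 reads. RPS2, at the messenger entry and on the path to the decoding centre, had 1151 and 948 reads (2172 ± 255 CPM, SD, n = 2). That is 0.235% (interval 0.222 to 0.249%) and 0.199% (0.187 to 0.212%) of the reads on genes, and 39.8% and 40.4% of the reads of all members but RPS29. Its gene lies on chromosome 16 at 1962058 to 1964841 on the minus strand. RPS24, on the side of the body and a Diamond-Blackfan anaemia gene, had 343 and 313 reads (679 ± 30.8 CPM). RPS21 had 87 and 72 reads (165 ± 18.8 CPM). RPS2, RPS24 and RPS21 kept this order by reads in both libraries. Below RPS24 the order changed, with RPS23 above RPS21 in replicate 1 and RPS14 above RPS21 in replicate 2. RPS23, whose loop enters the decoding centre, had 103 and 52 reads (160 ± 71.6 CPM). RPS14, on the platform and the gene whose loss underlies the anaemia of the 5q- syndrome, had 62 and 83 reads (151 ± 33.7 CPM), with replicate 2 the higher. RPS4X, the X-linked copy of a gene with Y-linked relatives, had 45 and 42 reads (90.1 ± 2.65 CPM). RPS6, the substrate of S6 kinase downstream of mTOR, had 34 and 24 reads. RPS3A had 36 and 20 reads and RPS7 had 14 and 26. RPS27, a zinc-binding protein, had 6 and 22 reads (29.2 ± 24.0 CPM), the lowest identified member.

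Body proteins seen in 1 library only were RPS13 (10 and 0 reads), RPS15A (0 and 6), RPSA (0 and 4) and RPS26 (0 and 4). RPSA is also known as a laminin receptor precursor, and RPS26 lies at the messenger exit. RPS9, near the messenger entry, had no read in either library, and the limit of 3 reads is 0.000613% and 0.000630% of the reads on genes. The same limit applies to RPS10 and RPS18. RPS15A, RPSA and RPS26 had intervals that overlapped between the libraries. The paralog RPS27L, a p53-responsive relative of RPS27, had 8 and 0 reads. It had fewer than 10 reads over both libraries and stays out of the counts of such genes. The Y-linked copies RPS4Y1 and RPS4Y2 are members by the rule, and their levels are not given.

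Levels between genes were compared per kilobase of annotated exon. The median of the 22 identified small-subunit genes was 40.5 CPM per kilobase (39.4 without RPS29), beside 44.8 for the 45 identified large-subunit genes, 4.87 for 9 mitochondrial small-subunit genes and 6.73 for all 4305 identified protein-coding genes. The identified members are short, with a median of 2856 bases of exon (2781 without RPS29) against 5750. On this scale RPS29 stood at 9832 ± 2024 CPM per kilobase (SD, n = 2) and RPS2 at 910 ± 107. RPS28 followed with 205 ± 56.2, RPS21 with 159 ± 18.1 and RPS12 with 155 ± 116. The SDs of RPS28, RPS21 and RPS12 overlap, so that their order is not resolved by 2 libraries. RPS24, next after RPS2 by reads, stood at 86.8 ± 3.93 CPM per kilobase over its 7829 bases of exon. RPS20 was lowest of the identified genes on this scale, at 5.80 ± 2.49 CPM per kilobase, and RPS7 stood at 7.53 ± 3.33. The canonical transcripts of RPS24, RPS20 and RPS7 have only 534, 519 and 732 bases. Their merged exons have 7829, 6765 and 5529. The order of single genes therefore depends on the length used, and levels by canonical transcript were not calculated.

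**Figure D3:**
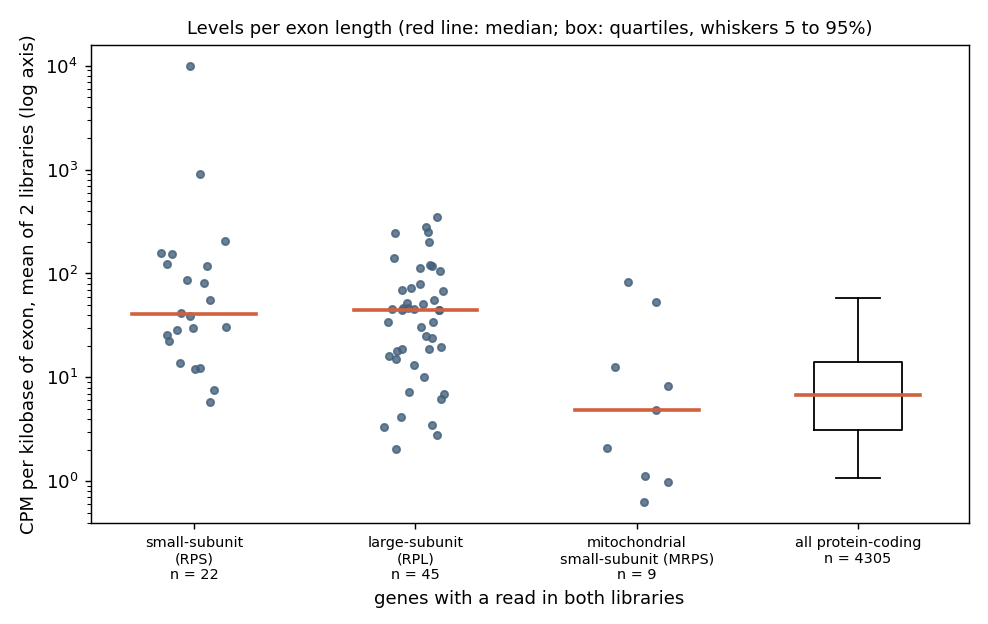
Mean level over both libraries in CPM per kilobase of exon (log axis) for identified genes, 1 point a gene, with a red line at each median and a box with quartiles and whiskers at the 5th and 95th percentiles for all protein-coding genes. The small-subunit genes (median 40.5) and large-subunit genes (44.8) sit above the mitochondrial small-subunit genes (4.87) and the protein-coding median (6.73), and the 2 highest small-subunit points are RPS29 and RPS2.

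Of the 34 members, 17 were lower in replicate 2, 11 were higher and 6 had no read. For the 21 genes with at least 10 reads in both libraries, the median log2 ratio of replicate 2 to replicate 1 was -0.36 (-0.30 without RPS29), with a range from -1.71 to 0.98. Of these, 15 lay below 0 (14 without RPS29) and 6 above. With no filter, on the log2(CPM + 1) scale over all 34, the median was -0.0297 (0 without RPS29). The median of all protein-coding genes held to the same minimum was -0.06 and that of the large-subunit genes -0.12. The highest ratio, 0.98, was that of RPS27A, followed by RPS7 at 0.93 and RPS3 at 0.73. Of 23 members with at least 10 reads summed over the libraries, 8 (34.8%) had intervals that did not overlap (7 of 22, or 31.8%, without RPS29), against 56.4% of protein-coding genes of the same minimum. Those higher in replicate 1 included RPS29, RPS2, RPS28, RPS23, RPS12 and RPS13, and the gene higher in replicate 2 was RPS27. Even counts outnumbered odd ones: of protein-coding genes with 2 to 21 reads, 78.4% had an even count in replicate 1 and 75.6% in replicate 2. Among members in that range, 5 of 5 and 6 of 7 counts were even. With no upper limit, 14 of 24 (58.3%) and 17 of 26 (65.4%) member counts were even, against 73.9% and 71.6% of protein-coding genes. Intervals that take every read as separate may therefore be too narrow, and the cause of the even counts was not tested. With all counts halved, a calculation added after these values were seen, the intervals of 3 members stood apart, or 13.0% (2 without RPS29, or 9.09%), against 30.7% of protein-coding genes.

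Many members share long stretches of sequence with copies elsewhere in the genome, so that a read from them can fit several places. The share of 64-base windows of the canonical transcript found exactly at another place in GRCh38 had a median of 16.2% for the 22 identified members (11.7% without RPS29). For the 10 members with reads in 1 library or none, the Y-linked genes apart, it was 56.5% (range 3.01 to 89.9%). RPS19 and RPS21 had no such window, whereas RPS10, with no read, had 89.9%. Over 50% of windows were shared in 4 of 22 identified genes and 6 of 10 of the others. The identified 4 were RPS3A (95.8%), RPS27 (94.8%), RPS2 (67.1%) and RPS7 (64.3%). These shares cover the canonical transcript only, which has 945 bases for RPS2 and 732 for RPS7. Their merged exons have 2388 and 5529 bases, and reads may lie on exon bases that were not searched. RPS2 was next to RPS29 by reads, and RPS27L, with 3.01% shared, had 8 and 0 reads. For RPS9 and RPS18, both without reads, the windows were found mostly or in large part on alternate contigs, at 67.8% and 41.6%. These contigs are extra versions of some regions in the assembly. RPS18 also had 40.5% of its windows at another place outside these contigs. Of the 9 members with windows on alternate contigs, 3 were identified. Among them was RPS7, with 14 and 26 reads and a share on these contigs near that of RPS18. Whether the authors' alignment held alternate contigs is not given in the sources used here. The part of shared sequence in the counts of these genes was not tested. RPS10 also shares 730 bases of exon on its own strand with the readthrough gene RPS10-NUDT3, which had no read either. Reads that fit both genes could be set aside as ambiguous, so a count of 0 says little about RPS10.

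**Figure D4:**
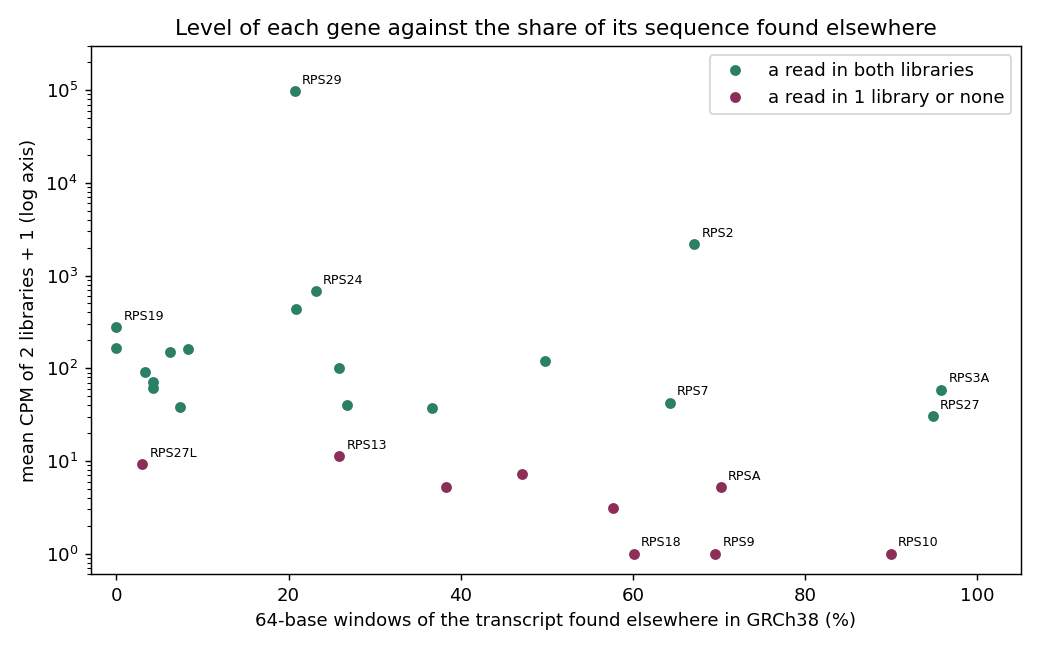
Mean CPM over both libraries plus 1 (log axis) for the small-subunit genes described in the text, Y-linked copies left out, against the share of 64-base windows of its canonical transcript found exactly elsewhere in GRCh38 (%). Over all members identified genes (green) have a median share of 16.2% and the others (purple) 56.5%, but RPS3A, RPS27, RPS2 and RPS7 lie far to the right with reads in both libraries.

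The files list 494 pseudogenes named for 31 of the members, and few drew reads. Only 26 had any, 11 had reads in both libraries, and all together they had 171 and 167 reads (169 ± 2.83, SD, n = 2). That is 5.92% and 7.12% of the reads of the members without RPS29. The highest were RPS2P5 (20 and 40 reads), RPS2P46 (41 and 10), RPS18P5 (13 and 24), RPS24P19 (30 and 3) and RPSAP52 (18 and 9). RPS18 and RPSA had fewer reads than their pseudogenes in both libraries: RPS18 none against 17 and 24, and RPSA 0 and 4 against 18 and 14. How reads divide between a gene and a near-identical copy is uncertain for these pairs.

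For 9 members, exons overlap those of 11 genes on the other strand, and 6 of the 11 had a read. The libraries were stranded, but the strand setting of the counting is not given in the sources used here, so reads of overlapping genes cannot be assigned to a strand with certainty. In the pairs of RPS23 and RPS3A the partner had more reads than the member in both libraries. ATG10, an autophagy gene opposite 374 bases of RPS23, had 1246 and 1170 reads against 103 and 52. SH3D19, opposite 262 bases of RPS3A, had 320 and 218 reads against 36 and 20. In the pairs of RPS28 with KANK3 (14 and 12 reads) and of RPS27A with CLHC1 (4 and 0 reads) the member was the higher. The counts of RPS23 and RPS3A are uncertain to that extent, and the part of strand in them was not tested. Of the identified members, 15 have no exon opposite another exon, among them RPS2, RPS24, RPS19 and RPS21.

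**Figure D5:**
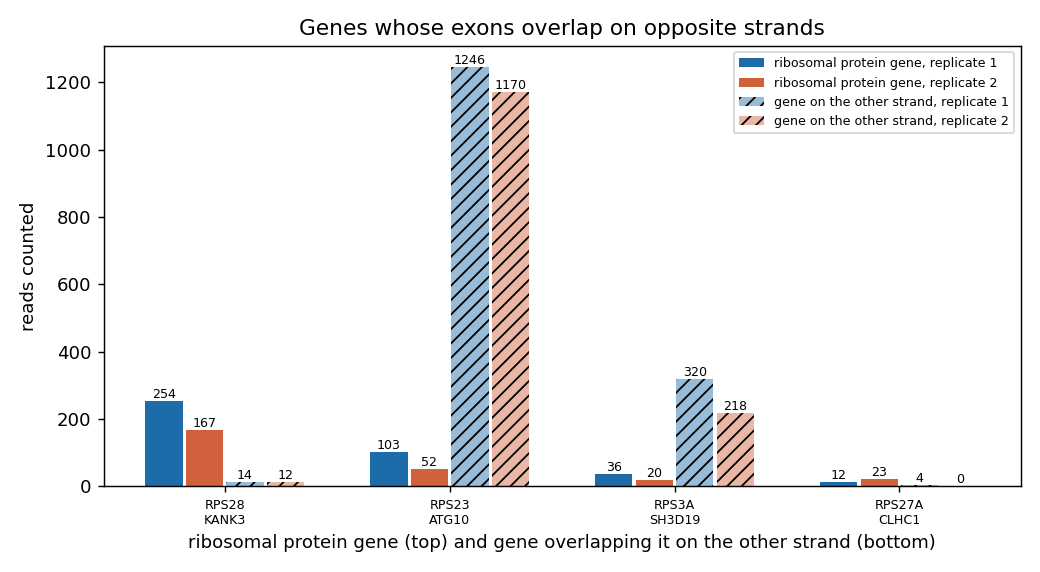
Reads counted (linear axis from 0) on members other than RPS29 (solid bars) and on the gene whose exons overlap them on the other strand (hatched bars), for 4 pairs whose partner had a read, in replicate 1 (blue) and replicate 2 (red). ATG10 and SH3D19 exceed RPS23 and RPS3A in both libraries, and RPS28 and RPS27A exceed their partners.

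Within 9 members lie 20 genes for small nucleolar RNAs, guides for rRNA modification that are mostly cut from introns. They include SNORA10 and SNORA64 in RPS2, SNORD15A in RPS3 and SNORD73A in RPS3A. None of the 20 had a read in either library. SNORA10, SNORA64, SNORD15A and SNORD73A overlap annotated exon of their host on the same strand, by 133, 134, 135 and 65 bases. Reads that fit both genes could be set aside as ambiguous, so a count of 0 says little about such genes. Others, such as SNORD15B in RPS3, overlap no exon of their host. Whether the vesicles carry these RNAs was not tested.

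Other proteins of the subunit and its builders come from a list of 40 genes. FAU, made as a fusion that yields ribosomal protein eS30, had 50 and 17 reads (69.0 ± 47.0 CPM, SD, n = 2). RACK1, a scaffold on the back of the head that docks signalling proteins, had 59 and 22 (83.4 ± 52.6 CPM). Both were identified and both were higher in replicate 1, as was RPS12. Per kilobase of exon they stood at 44.6 ± 30.4 and 14.5 ± 9.16 CPM, inside the range of the members. Of 38 assembly factors, which act in the nucleolus and cytoplasm to build the subunit and leave before it translates, 19 (50.0%) were identified, 14 had reads in 1 library and 5 had none. The 21.9% of protein-coding genes identified is the background for that count too. The assembly factors had 534 and 766 reads together, with replicate 2 the higher, whereas the summed reads of the members were higher in replicate 1. UTP18 was highest, with 118 and 98 reads (224 ± 25.0 CPM), then DCAF13 with 30 and 140 (178 ± 165 CPM) and PDCD11 with 26 and 82 (113 ± 84.2 CPM). UTP18 was the even one, while DCAF13 and PDCD11 each rested mainly on replicate 2. The identified assembly factors had a median of 10.3 CPM per kilobase of exon, against 40.5 for the identified members.

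A pyrimidine start, known to link translation of ribosomal protein messengers to mTOR, was looked for at the RefSeq start sites (GRCh38.p14). It was taken as a C within 5 bases of the start followed by at least 4 letters that are C or T, read on the strand of the gene alone. Of 27 members with a promoter entry 21 (77.8%, or 80.8% of 26 without RPS29) held it, against 6886 of 27305 genes (25.2%). This background takes all genes with an entry and is not limited to the 19629 protein-coding genes used elsewhere. Among identified members it was found in 14 of 17 (82.4%), or 14 of 16 (87.5%) without RPS29. RPS2, RPS15A and RPS20 are among those with no entry. The match describes letters near the start site and shows nothing about use of the site in these cells.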

How the data were processed

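Total RNA of PC3 EVs was sequenced in 2 libraries, assigned to replicates 1 and 2 by the sample titles, with files assigned by the sample descriptions. The authors mapped the reads to GRCh38 and deposited 1 file a library of unnormalized counts, with genes by Ensembl identifier. The submitters' processing notes name HTSeq. Versions, strand setting and annotation release are not given in the sources used here. The miRNA counts of the same series were not used.

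Symbols, gene types, exons and coordinates came from GENCODE release 44, to which 56948 identifiers matched and 1103 did not. Lines of reads set aside, 97.5% and 97.8% of all reads, stayed out of the totals of 489170 and 475942 gene reads. Counts were scaled to 1000000, and per kilobase of exons merged over transcripts. Shares carry 95% Wilson intervals per library, and means the SD of 2 replicates. With 1 condition no test was run. TMM factors (edgeR 4.0.16) and size factors (DESeq2 1.42.0, R 4.3.3) served as alternatives, and no test of either was used. Windows of 64 bases were searched on both strands of GRCh38. Promoters came from RefSeq. Python 3.11.15, pandas 2.3.3, numpy 2.4.6, biopython 1.88 and matplotlib 3.10.9 were used.

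The members, lists and alternatives were chosen with earlier results of these data known. By rule all members could be named, with full values for RPS29, the 10 highest other identified members, those without reads and RPS27L. Some genes are counted in the totals but not reported singly here. Other genes are named where exons overlap a member, as the 5 highest pseudogenes, the 3 highest assembly factors, FAU, RACK1, preset markers, 7SL RNA genes or examples of small nucleolar RNA genes. The last 2 kinds were added after the values were seen. Alternatives were other minimum counts, totals, lengths, scalings and window sizes, and leaving out each replicate.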

Additional observations from a re-analysis of the deposited data

How the results depend on the processing

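The number of identified members was 22 with minimums of 1 read, 3 reads or 10 CPM in both libraries and 28 with a read in either, and 21 members had 10 reads in both. With 1 library left out it was 24 to 26, members with 10 reads 22, other 40S genes 28 and the pseudogene reads 167 to 171. The shares of gene reads were then 8.76 to 11.7% and, without RPS29, 0.493 to 0.591%. No read in either library was found for 6 members and for 11333 of 19629 protein-coding genes. The share of protein-coding genes with 3 reads, with 10 CPM or in a single library was not calculated. Those counts stand without that background. Of protein-coding counts the members held 17.3%, or 0.918% without RPS29, and of all reads 0.241% and 0.0127%. Without RPS29, 7SL RNA and mitochondrial genes in the total, the share was 0.988%. The median level per kilobase was 62.0 CPM with the longest transcript as length (49.5 without RPS29) and 18.1 with no filter (13.9 without RPS29). Leaving out 1 library gave 29.9 to 42.1 (29.6 to 32.3 without RPS29), over all members with a read in the library kept. Over the identified members alone the medians were 52.8 in replicate 1 and 39.6 in replicate 2 (51.8 and 34.3 without RPS29). The median log2 ratio was -0.0297 with no filter and from -0.31 to -0.30 under TMM, size factors, no RPS29 or at least 50 reads. With halved reads, intervals stood apart for 3 of 23 members (13.0%), against 30.7% of protein-coding genes. With at least 100 reads they stood apart for 5 members, out of fewer than 23. The share of protein-coding genes at that minimum was not calculated, so the 5 cannot be read as a fall. Pseudogenes with 3 reads in both libraries had 136.5 reads on average. Other 40S genes with 10 reads in both numbered 12, against 21 identified. The shares of protein-coding genes at the same minimums were 11.6% and 21.9%. With 32-base windows the shares elsewhere were 38.8% for identified members and 75.0% for the others. Halved reads, 50 reads and 32-base windows were chosen after seeing the data. The causes of these shifts were not tested, beyond the change of total, length or minimum itself.

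No paired analysis was possible because the total RNA has 1 condition, and the same-numbered small RNA libraries measure miRNAs. Depth limits the genes under about 10 reads: 6 members had reads in 1 library only, and the limit of 3 reads taken for a count of 0 is 6.13 or 6.30 CPM.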
